A study of Mus musculus with 6 samples.

Results

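The 10 Sox transcription factor genes Sox2, Sox3, Sox4, Sox5, Sox6, Sox8, Sox9, Sox10, Sox11 and Sox12 were followed through 6 peak lists from chromatin immunoprecipitation with sequencing (ChIP-seq), in which DNA bound by a protein is recovered and regions of enrichment are listed as peaks. The genes were fixed by name, out of 21900 protein-coding genes. Every peak whose deposited nearest-gene name was one of the 10 was taken, which gave 66 peaks out of 97783 in the 6 lists. The cells were neural stem cells cultured from newborn (P0) mouse cortex on laminin and poly-L-ornithine with EGF and bFGF. Chd4, the chromatin-remodelling ATPase of the NuRD complex, was profiled in Ctrl, iKO, siSCR and siSeh1 cells. Seh1, a nucleoporin of the Y complex, was profiled in Ctrl cells and, through a flag tag, in a library titled iKO. The Chd4 iKO cells have the genotype mutant and were given 4-OH-TAM (4-hydroxytamoxifen), and the Seh1-flag cells were given 4-OH-TAM too but have the genotype wild type. The Ctrl, siSCR and siSeh1 cells are wild type in plain growth medium, per the labels. The labels do not spell out iKO, siSCR and siSeh1, which are read here as inducible deletion of Seh1, a scrambled control RNA and silencing of Seh1. No source used here gives the allele, the Cre driver or the origin of the flag-tagged protein. The header name of the Seh1-flag list starts with oe_seh1_wt, while its title says iKO and its genotype wild type, so what this library is remains unclear and it is called by its label.

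Each group had 1 library, so there is no replicate check, no test across conditions, and every difference below is between 2 libraries. The lists held 24961 peaks for Seh1-flag, 20833 for Seh1 Ctrl, 1154 for Chd4 Ctrl, 21294 for Chd4 iKO, 2606 for Chd4 siSCR and 26935 for Chd4 siSeh1. No source used here gives the number of sequenced tags behind a list, so depth is unknown, and a gene missing from a list may have been missed. The share of all protein-coding genes listed in the same way stands beside the counts of Sox genes per list at the main settings. For counts at other windows, annotation classes, list lengths or controls no such share is given. Peak lists do not measure expression, so the labelled cell type could not be checked against its markers.

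Sox proteins bind DNA through a high mobility group (HMG) box, which enters the minor groove and bends the helix, and they act with partner factors. The SoxB1 members Sox2 and Sox3 keep neural progenitors dividing, the SoxC members Sox4, Sox11 and Sox12 act as neurons differentiate, the SoxD members Sox5 and Sox6 lack an activation domain of their own and modulate the other groups, and the SoxE members Sox8, Sox9 and Sox10 direct glial and neural crest fates. SoxB1 and SoxC genes are made of a single exon, while Sox5 and Sox6 are long genes with many introns.

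In the Chd4 siSeh1 list 5 Sox genes had a peak just upstream of the start site. Those 5 places are shown because they are the peaks named for a Sox gene that the deposited annotation puts at a promoter. For the Sox8 peak the promoter it gives is that of a noncoding transcript. Sox2, Sox4, Sox8 and Sox12 were listed there in siSeh1 and not in its control, while Sox11 had a promoter peak in both and Sox10, also gained, had its peak inside the gene. The lines give the 250 bases before each RefSeq transcription start site (TSS, build GRCm38.p6, the assembly that mm10 represents), 5′ to 3′ on the strand of the gene, and capitals mark the 21 bases centred on the peak position. The stretches are chr3:34649745-34649994 (plus strand) for Sox2, chr13:28953700-28953949 (minus strand) for Sox4, chr17:25570687-25570936 (minus strand) for Sox8, chr12:27342719-27342968 (minus strand) for Sox11 and chr2:152398047-152398296 (minus strand) for Sox12.
Sox2: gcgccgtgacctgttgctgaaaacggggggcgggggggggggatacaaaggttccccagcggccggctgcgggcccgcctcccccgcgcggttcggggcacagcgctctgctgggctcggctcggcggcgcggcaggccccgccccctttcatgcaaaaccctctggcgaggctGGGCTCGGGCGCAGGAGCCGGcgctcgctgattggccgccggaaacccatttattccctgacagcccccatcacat
Sox4: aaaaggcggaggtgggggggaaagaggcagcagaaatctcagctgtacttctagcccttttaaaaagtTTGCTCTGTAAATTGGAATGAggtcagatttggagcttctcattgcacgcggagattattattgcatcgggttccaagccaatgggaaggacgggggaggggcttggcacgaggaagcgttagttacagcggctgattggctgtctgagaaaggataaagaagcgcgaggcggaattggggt
Sox8: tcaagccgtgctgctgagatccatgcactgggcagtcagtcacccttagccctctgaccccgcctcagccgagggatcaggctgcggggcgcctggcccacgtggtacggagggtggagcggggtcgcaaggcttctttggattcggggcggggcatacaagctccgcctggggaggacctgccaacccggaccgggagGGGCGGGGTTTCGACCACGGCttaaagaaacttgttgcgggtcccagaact
Sox11: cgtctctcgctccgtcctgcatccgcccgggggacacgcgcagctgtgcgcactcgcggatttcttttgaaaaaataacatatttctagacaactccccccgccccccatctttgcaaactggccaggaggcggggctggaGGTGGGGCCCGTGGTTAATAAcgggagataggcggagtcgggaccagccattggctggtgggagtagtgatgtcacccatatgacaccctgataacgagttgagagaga
Sox12: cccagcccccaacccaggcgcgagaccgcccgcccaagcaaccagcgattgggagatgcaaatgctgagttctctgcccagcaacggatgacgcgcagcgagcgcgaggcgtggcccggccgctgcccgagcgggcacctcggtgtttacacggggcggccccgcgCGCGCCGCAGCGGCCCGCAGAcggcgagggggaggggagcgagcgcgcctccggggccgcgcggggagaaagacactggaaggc

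The 5 stretches differed in base composition, and 4 of them held more G and C than the median promoter. The share of G and C was 72% at Sox2, 50.8% at Sox4, 65.6% at Sox8, 58% at Sox11 and 74.4% at Sox12, against a median of 52.4% over the 32851 RefSeq promoter windows of the same length. CpG dinucleotides numbered 27, 11, 18, 17 and 35 in the same order, against a median of 6. Sox4 was thus the one of the 5 with a G and C share below that median. Windows of any gene that held a Chd4 siSeh1 peak (1741) had a median of 63.2% G and C and of 19 CpG, so the Sox windows lay on both sides of the windows that Chd4 shared.

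Short motifs were counted on both strands, and matches of different motifs may overlap. The letters CCAAT, the core of the box bound by the factor NF-Y, occurred at Sox2, Sox4, Sox11 and Sox12 and not at Sox8. The match began 46 bases before the start site at Sox2, 60 at Sox11 and 203 at Sox12, and Sox4 had 4 matches, at 171, 104, 47 and 8. Of all promoter windows 33.8% held CCAAT, and of those with a Chd4 siSeh1 peak 76.5%. The Sp-type letters GGGCGG occurred in all of the 5 windows but Sox4, against 32.7% of all windows and 75.6% of those with a peak. The Sox-type letters ACAAT were in none of the 5, against 27.7% of all windows and 12.6% of those with a peak. The letters ACAAAG were in the Sox2 window alone, against 16.5% and 8.5%. A match of this kind describes the letters and shows no binding.

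The 10 genes differed widely in how many peaks carried their name. Sox11 had 24 peaks over the 6 lists, Sox6 18 and Sox5 10, which together make 52 of the 66. Sox3 had 4, Sox12 3, Sox8 and Sox10 2 each, and Sox2, Sox4 and Sox9 1 each. By list, 10 of the 66 peaks came from Seh1-flag, 12 from Seh1 Ctrl, 0 from Chd4 Ctrl, 17 from Chd4 iKO, 2 from Chd4 siSCR and 25 from Chd4 siSeh1. In the deposited annotation 39 peaks were intergenic, 14 intronic, 7 exonic, 5 at promoters and 1 in a 3′ untranslated region (UTR). The intergenic share, 59.1%, was equal to that of all peaks in the 6 lists, 59.1%. The other classes differed: the 14 intronic peaks of 66 stand beside 33.1% of all peaks, and the 7 exonic ones beside 1.21%. Of those 7 exonic peaks 4 were at Sox11. Within 10 kb of a start site lay 16 of the 66 peaks, and 10 of these came from Chd4 siSeh1. No share of all peaks within 10 kb is given, so nothing is read from that count. Within 1 kb lay 9 of the 66, beside 5.26% of all peaks. Of the 25 siSeh1 peaks 7 did, beside 10.5% of that whole list.

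All 10 Sox genes had a peak named for them in Chd4 siSeh1, where 46.4% of protein-coding genes had one. In Chd4 iKO 5 did (Sox3, Sox5, Sox6, Sox10 and Sox11), against 36.8% of genes. In Chd4 siSCR Sox11 alone did, against 7.47%. In Chd4 Ctrl 0 of 10 did, where 2.67% of genes were named, so 0 says little about the family. Seh1-flag named Sox5, Sox6, Sox11 and Sox12 (38.9% of genes), and Seh1 Ctrl named Sox3, Sox5, Sox6 and Sox11 (34.1%). The 4 of 10 in each Seh1 list were near the share of genes in general.

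**Figure D1:**
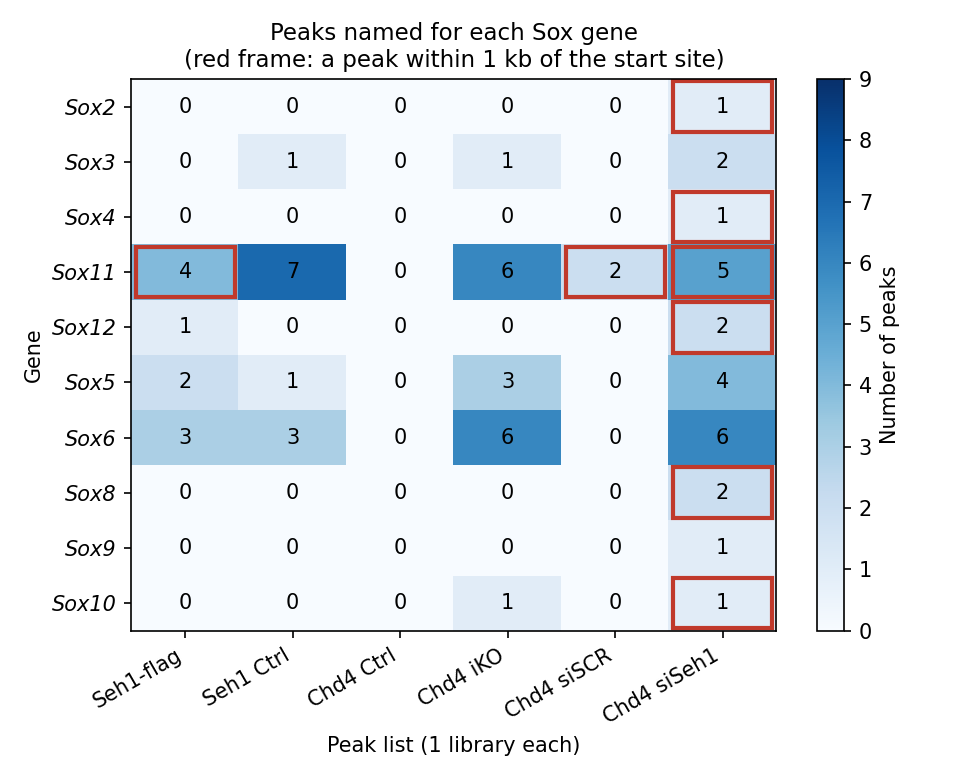
Number of peaks named for each Sox gene (rows) in each of the 6 peak lists (columns, 1 library each); the shade and the printed digit give the number, and a red frame marks a gene with a peak within 1 kb of its start site. The Chd4 siSeh1 column has 6 frames and no empty gene, and the Chd4 Ctrl column is empty.

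Silencing of Seh1 was set against the siSCR control to see where Chd4 was listed. Within 1 kb of a start site, called a promoter peak here, Chd4 siSeh1 listed 6 of the 10 Sox genes (Sox2, Sox4, Sox8, Sox10, Sox11 and Sox12; 60%, exact Clopper-Pearson 95% interval 26.2 to 87.8%, which covers counting error only and takes the genes as independent). Chd4 siSCR listed 1 of 10, Sox11. Over all protein-coding genes the shares were 11.8% in siSeh1 and 1.63% in siSCR. Sox2, Sox4, Sox8, Sox10 and Sox12 were gained in siSeh1, which is 5 of 10 beside 10.5% of all genes, and 0 of 10 were lost, beside 0.297%. These genes were put forward with earlier results of the same lists known, so the excess over the background is a description. The siSeh1 list held 26935 peaks against 2606, and the number of Sox genes depended on that length. With each list cut to the 1154 peaks of highest score, the length of the shortest, siSeh1 held Sox2 and Sox11 (2 of 10), and 1 gene, Sox2, was gained. No share of all genes under this cut is given, so these counts cannot be set against a background.

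The gained promoter peaks ranged in rank from 4.25% to 64.3% of their list. Sox2, the SoxB1 factor that marks neural stem cells, had its peak on chromosome 3 at 34649929, 66 bp upstream of the start site, with a score of 6.86. It ranked 1143.5 of 26935 (4.25% from the top; equal scores share a mean rank), just inside the 1154 peaks named above. Sox8, a SoxE factor of glia, had its peak 41 bp upstream at 25570727, score 5.41, at 7.97%. Sox10, the SoxE factor of oligodendrocytes, had a peak 902 bp downstream in exon 2 of 4, at 79163588 on chromosome 15, score 4.85, at 11.6%. Sox4 had its peak 172 bp upstream at 28953871, score 4.06, at 27.9%. Sox12 had its peak 74 bp upstream at 152398120, score 3.05, at 64.3%, below the median of the list. Sox2 thus stood highest and Sox12 lowest among the 5 gained genes, and Sox10 was the one whose peak lay inside the gene.

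Other transcripts share some of these start regions. The lncRNA gene Cerox1 begins 125 bp from the 5′ end of Sox8 and runs the other way, and the siSeh1 peak lay 84 bp before the Cerox1 start, between both start sites. Sox2 lies inside the RefSeq span of the lncRNA Sox2ot, and Sox4 inside that of Gm46405. The deposited annotation names Sox8 as the gene of its peak but gives the promoter of a noncoding transcript. Which transcript such a peak goes with cannot be told apart.

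Deletion of Seh1 was set against Ctrl in the same way. Chd4 iKO had a promoter peak at 0 of the 10 Sox genes (upper limit 30.8%), beside 5.18% of all protein-coding genes. Chd4 Ctrl had one at 0 of 10 as well, beside 0.0183%. Genes gained numbered 0 of 10 beside 5.18%, and genes lost 0 of 10 beside 0.0183%. The absence of Sox genes thus says little beside so low a share. Exons held Chd4 iKO peaks at Sox11 and Sox10, and a 3′ UTR at Sox6. This was 3 of 10 genes with an exon or UTR peak, beside 2.4% of all genes. The siSeh1 list also had 3 of 10, at Sox8, Sox10 and Sox11 (3.29%). Sox11 alone had one in siSCR (0.237%) and in Seh1-flag (0.986%). No Sox gene had one in Chd4 Ctrl (0.0457%) or Seh1 Ctrl (1.42%).

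Of the 5 genes gained in siSeh1, Sox10 had an iKO peak inside the gene, described with the SoxE group, and the other 4 had none in iKO or siSCR within 10 kb. From the Sox2 span (chromosome 3, 34649995 to 34652461) the nearest iKO peak lay 129 kb away, and the nearest siSCR peak 200 kb. From Sox4 (chromosome 13, 28948919 to 28953699) they lay 55.5 kb and 1032 kb away, and from Sox8 (chromosome 17, 25565893 to 25570686) 28.7 kb and 157 kb. From Sox12 they lay 24.7 kb and 930 kb away, and from Sox10 the nearest siSCR peak lay 91.8 kb away. In Chd4 Ctrl the nearest peak to any of the 10 genes lay 404 kb away, beyond Sox6.

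Sox11, a SoxC factor of newborn neurons, was the member with promoter peaks in most lists and with the highest scores. Its gene is 1 exon of 8451 bp on chromosome 12 (27334268 to 27342718, minus strand). An exon peak stood at 27341891 in Seh1-flag, 827 bp into the gene, with a score of 259. In Chd4 siSeh1 it stood at 27342018, 700 bp in, with a score of 149. In Chd4 siSCR it stood at 27342190, 528 bp in, with a score of 59.1. In Chd4 iKO it stood at 27341558, 1160 bp in, with a score of 28.5. The 4 positions spread over 632 bp, and Seh1 Ctrl and Chd4 Ctrl had no peak in the gene. In Seh1 Ctrl the nearest one lay 28.1 kb away and in Chd4 Ctrl 3862 kb.

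Each of those 4 peaks stood at the very top of its list. It ranked 1 of 2606 in siSCR and 1 of 26935 in siSeh1, 3 of 24961 in Seh1-flag and 7.5 of 21294 in iKO. Scores are the authors' and have no known common scale, so they are read within a list. In siSeh1 the Sox11 score was 2.87 times the next highest of any peak, and in siSCR 2.18 times. Among exon peaks alone it was first of 65 in Seh1-flag, first of 43 in siSCR, first of 493 in siSeh1 and the third of 362 in iKO. The highest other exon peak was in Robo2 in Seh1-flag (score 33.3), in Mir7045 in siSCR (10.3), in Seh1l in siSeh1 (23.2) and in Apoe in iKO (49.8). Sox11 was the 1 protein-coding gene with an exon peak in all 4 of these lists, out of 57 genes with an exon peak in Seh1-flag, 325 in iKO, 34 in siSCR and 441 in siSeh1. That count was chosen after the values were seen.

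Sox11 was listed in both arms of the silencing comparison, so it was neither gained nor lost. Its promoter status turned on the 1 kb limit. The Seh1-flag peak at 827 bp is the last just inside and the iKO peak at 1160 bp the first just outside, and with a window of 2.5 kb Sox11 became the 1 Sox gene gained in iKO. A narrower window of 500 bp removed Sox11 from Seh1-flag and siSCR, which then had 0 of 10. At 1 kb Seh1-flag had 1 of 10 Sox genes at a promoter, Sox11, beside 1.33% of all genes, and Seh1 Ctrl had 0, beside 1.02%. In siSeh1 a second, weak peak lay 99 bp upstream of the Sox11 start site at 27342817, in the stretch printed above, with a score of 3.02 and rank 18863.5. No other protein-coding gene had promoter peaks in Seh1-flag, siSCR and siSeh1 and in no further list, so no gene could be named as most like it.

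**Figure D2:**
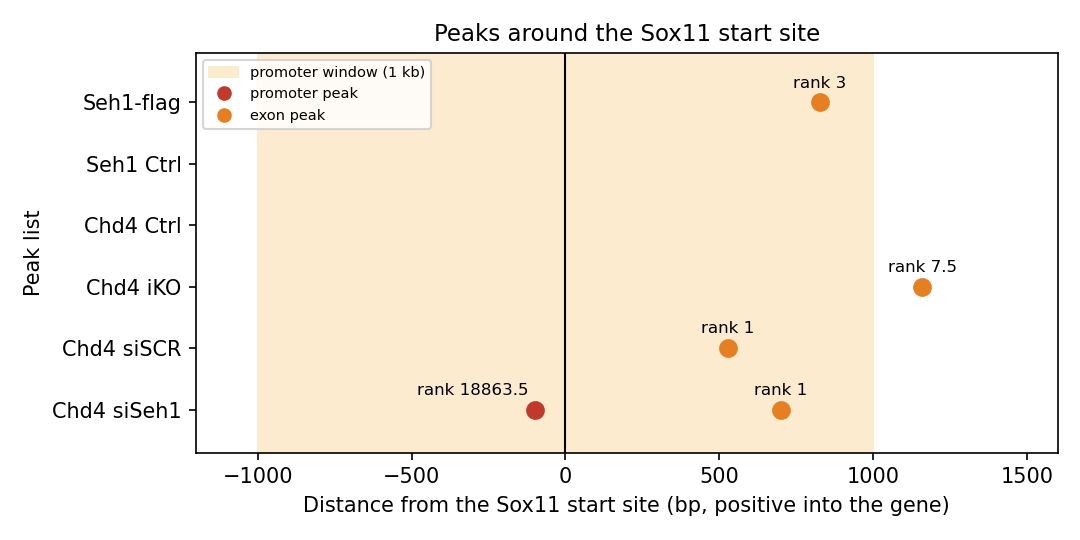
Peaks around the Sox11 start site, with distance in bp on the x axis (positive into the gene), a row for each list and the rank of the score within its list beside each point; the shaded band is the 1 kb promoter window. The 4 exon peaks lie between 528 and 1160 bp, the iKO peak outside the band, and the Seh1 Ctrl and Chd4 Ctrl rows are empty.

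The other 19 Sox11 peaks were intergenic. Of these, 17 lay upstream, 119 to 596 kb from the start site, and 2 downstream, both in Seh1 Ctrl. Seh1 Ctrl had 7, Chd4 iKO 5, Seh1-flag 3, siSeh1 3 and siSCR 1. Repeats held 8 of the 19. Their scores ranked between 19.6% and 95.1% of their lists, far below the exon peak, and no 2 of them from different lists lay within 2.5 kb of each other. Most of the peaks with the name Sox11 were thus distant ones, which carry that name because its start site is the nearest.

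Sox3, the X-linked SoxB1 gene (60891366 to 60893430), had 4 peaks, all intergenic. They lay 92.4 kb from the start site in Seh1 Ctrl, 139 kb in iKO and 119 and 144 kb in siSeh1. The iKO peak scored 4.74 at 12.4% of its list, and the siSeh1 peaks scored 4.87 at 10.9% and 3.73 at 40.9%. The iKO peak and the siSeh1 peak 144 kb away lay in LINE repeats. Sox2 had the 1 peak described above, so of the SoxB1 pair only the Sox2 start site was listed.

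Sox12 (chromosome 2, 152393611 to 152398046) had 2 flanking peaks besides its promoter peak. In siSeh1 one lay 8284 bp upstream, at 22.5% of the list, higher than the promoter peak. In Seh1-flag one lay 8172 bp downstream of the start site, beyond the end of the gene, in a simple repeat, with a score of 4.45 at 56.2%. Among the single-exon members Sox11 was the one with peaks inside the gene. Sox2 and Sox4 had theirs upstream, Sox3 downstream, and Sox12 on both sides.

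Sox5 and Sox6, which restrain or modulate the other Sox groups, had no promoter peak in any list. Sox5 spans 954 kb on chromosome 6 (143828425 to 144782287) and Sox6 570 kb on chromosome 7 (115470872 to 116040776). By position 20 peaks lay in the Sox5 span. The deposited annotation named 10 of them for Sox5 and 10 for Sox5os3, an antisense lncRNA gene within the span, and it called many intergenic because its Sox5 models are shorter than the RefSeq span. In the Sox6 span lay 10 peaks, all named for Sox6. Seh1-flag had 5 peaks in Sox5 and 3 in Sox6, Seh1 Ctrl 4 and 0, iKO 4 and 4, siSeh1 7 and 3, and Chd4 Ctrl and siSCR had 0 in both.

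Peaks inside a gene were common among genes of this length. Of 227 protein-coding genes with a span of at least 500 kb, 97.8 to 99.1% had a peak inside in the 4 long lists, 33% in siSCR and 24.2% in Chd4 Ctrl. Sox5 had 0.734 peaks per 100 kb in siSeh1, where the median of these long genes was 0.776, and 0.419 in iKO, where it was 0.583. Sox6 had 0.526 in siSeh1 and 0.702 in iKO. In iKO both lay between the quartiles of the long genes (0.401 to 0.817), and in siSeh1 Sox5 did and Sox6 lay just under the lower one (0.556 to 1.01). In Seh1 Ctrl both lay under the lower quartile (0.516, median 0.75), with 0.419 at Sox5 and 0 at Sox6. A Seh1 Ctrl peak lay 1.48 kb beyond the 5′ end of Sox6 and 3516 bp from the nearest start site. In Seh1-flag Sox5 had 0.524 and Sox6 0.526, between the quartiles (0.463 to 0.952).

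Few of these places recurred between lists. In intron 12 of Sox6 the iKO peak at 115520419 and the siSeh1 peak at 115520445 lay 26 bp apart, both in an L1Md_T LINE element, at 52% and 70.5% of their lists. In intron 8 of Sox5 the iKO peak at 143883738 and the siSeh1 peak at 143886021 lay 2283 bp apart, in the IAP elements IAPLTR2_Mm and IAPEz-int. No source used here says how reads that map to several repeat copies were handled. The 1 UTR peak of the family was the iKO peak at 115474522 in the 3′ UTR of Sox6, score 4.10, at 25.3%.

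**Figure D3:**
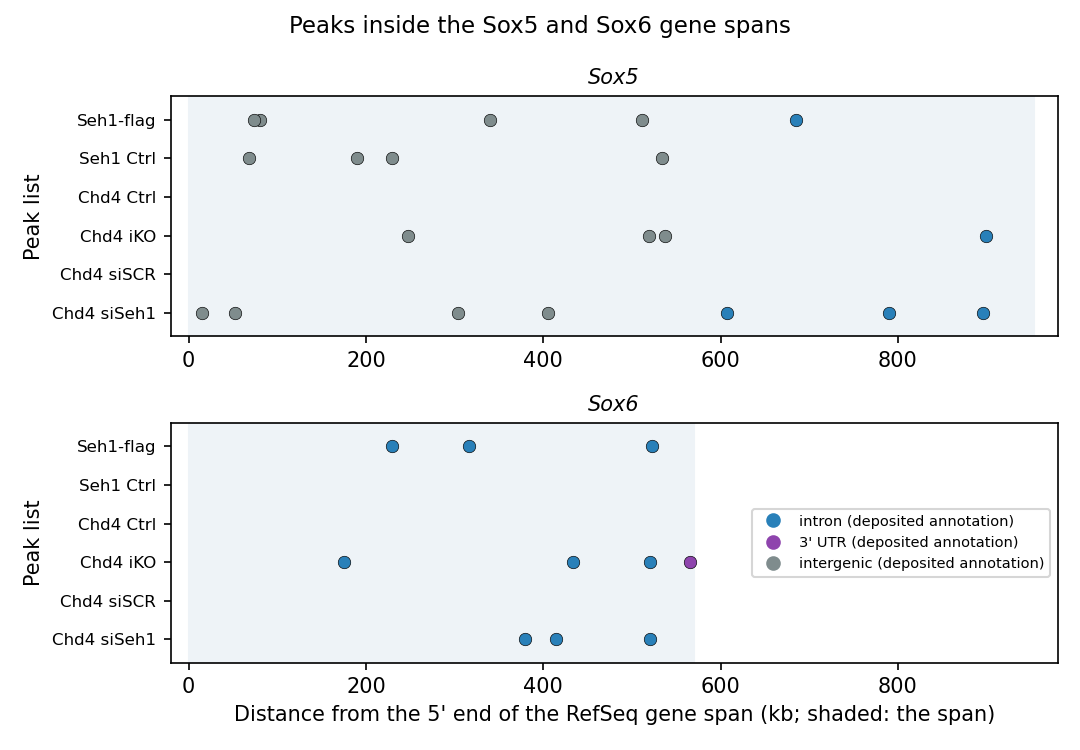
Positions of peaks inside the RefSeq spans of Sox5 (upper panel) and Sox6 (lower panel), in kb from the 5′ end on the x axis, with a row for each list and colours for the deposited annotation. Peaks lie in 4 rows for Sox5 and 3 for Sox6, and the Chd4 Ctrl and Chd4 siSCR rows are empty.

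In the SoxE group, siSeh1 held peaks at all of Sox8, Sox9 and Sox10, as it did at all 10 Sox genes (46.4% of all genes). The shares of all genes were 36.8% in iKO, 7.47% in siSCR and 2.67% in Chd4 Ctrl. These other Chd4 lists held 1 SoxE peak, the iKO peak in Sox10. That peak lay in exon 4 of 4 at 79155987, 8503 bp from the start site, score 4.74, at 12.4% of the list, while the siSeh1 peak lay in exon 2. The 2 lists thus marked different ends of the gene (chromosome 15, 79154913 to 79164490). Sox8 had a second siSeh1 peak in exon 3 of 3 at 25568071, score 3.05, at 64.3%. Sox9, a factor of radial glia and astrocytes, had a single siSeh1 peak 1333 bp beyond its 3′ end at 112789090 on chromosome 11, score 3.58, at 44.9%. In the other 5 lists the nearest peak to Sox9 lay 44.9 to 3270 kb away.

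Away from the Sox11 exon the Sox peaks were ordinary in score. Of the 10 Seh1-flag peaks 1 was in the top 10% of its list, of the 17 iKO peaks 1 and of the 2 siSCR peaks 1, each time the Sox11 exon peak. Of the 25 siSeh1 peaks 3 were, at Sox11, Sox2 and Sox8. The median Sox peak stood at 40.9% of the list in Seh1-flag, 52% in iKO and 44.9% in siSeh1, near the middle. Without the Sox11 exon peak the ranks ran from 18.2% to 88.3% in Seh1-flag, from 12.4% to 96.8% in iKO and from 4.25% to 91.5% in siSeh1.

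**Figure D4:**
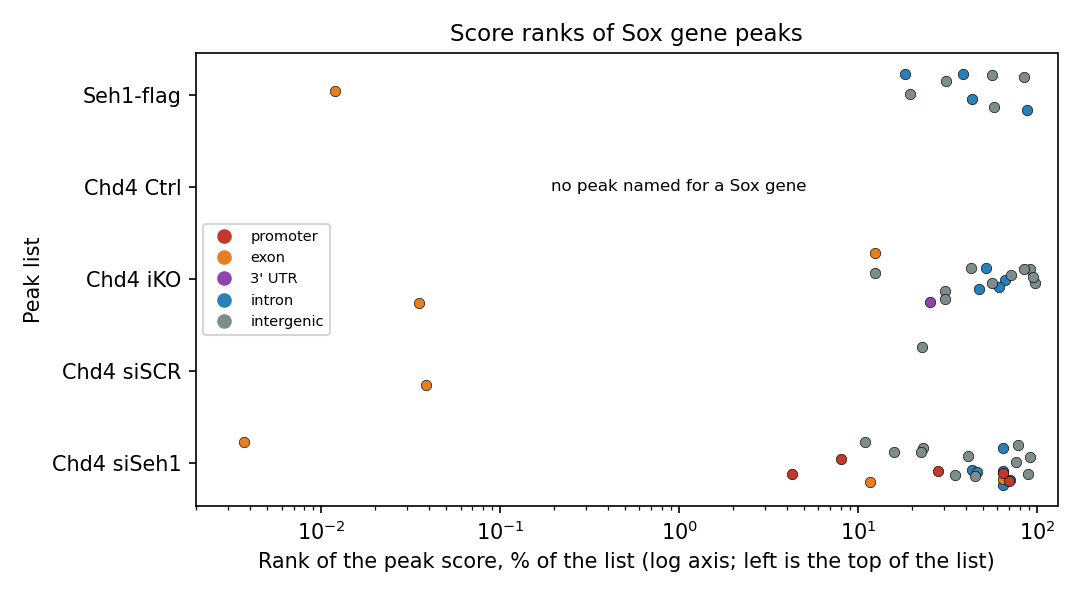
Rank of each Sox gene peak as a percent of its list (x axis, log scale, left is the top) in the 5 lists with scores, coloured by the deposited annotation and spread within a row for legibility. The Sox11 exon peak stands alone below 0.04% in 4 lists, and the next peak of any Sox gene is at 4.25%, in siSeh1.

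Seh1 and Chd4 lists were compared for places at a Sox gene that both proteins shared. Sox5, Sox6 and Sox11 were named in both Seh1-flag and Chd4 iKO, which is 3 of 4 and 3 of 5 Sox genes, and these with Sox3 in both Seh1 Ctrl and iKO, 4 of 4 and 4 of 5. All 10 Sox genes were named in siSeh1, which fixes the overlap with that list. The overlap over all genes was not counted, so nothing is read from these names. By position 1 pair had centres within 240 bp, the Sox11 exon peaks of Seh1-flag and siSeh1, 127 bp apart. The Seh1-flag peak lay 299 bp from that of siSCR and 333 bp from that of iKO. Seh1 Ctrl had no Sox peak within 1 kb of a Chd4 peak named for a Sox gene. Only peaks named for the Sox genes were compared by position. Between Chd4 lists the Sox11 exon peaks of siSCR and siSeh1 lay 172 bp apart and those of iKO and siSeh1 460 bp.

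Repeats held 19 of the 66 Sox peaks (28.8%), against 48.9% of all peaks in the 6 lists. In siSeh1 5 of 25 lay in repeats (20%, whole list 41.5%), in iKO 5 of 17 (29.4%, 48.2%), in Seh1 Ctrl 2 of 12 (16.7%, 49.1%) and in Seh1-flag 6 of 10 (60%, 56.8%). Seh1-flag was the list of these 4 in which Sox peaks were in repeats as often as peaks in general. Its 6 were 3 SINE, 2 simple repeat and 1 LTR, while iKO and siSeh1 each had 2 LINE.

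Other Sox genes were counted in the same way. Of Sox1, Sox7, Sox13, Sox14, Sox15, Sox17, Sox18, Sox21, Sox30 and Sry, 0 of 10 had a promoter peak in any of the 6 lists. Beside shares of all genes of 11.8% in siSeh1, 5.18% in iKO and at most 1.63% in the other lists, 0 of 10 is near the background, and no difference from the 10 members is read from it. The nearest to one was Sox18, a factor of endothelial cells named here after its value was seen, with a siSeh1 peak in its 3′ UTR 1666 bp from the start site. Sox1 and Sox21, which act in neural progenitors, are among these 10.

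Partners and targets of the Sox factors were counted in the same way. Of 16 SoxB1 partners and targets, siSeh1 had promoter peaks at Pou3f1, Pou3f3, Pou3f4 and Lhx2, iKO at Pou3f1 and Pou3f3, siSCR at Pou3f1, and Seh1 Ctrl at Prom1. Nes, Pou3f2, Pax6, Fabp7, Hes5, Notch1, Vim, Egfr, Jag1, Gli2 and Shh had none in any list. The Pou3f genes encode POU factors that bind DNA beside Sox2, and Lhx2 is a LIM homeobox factor of cortical progenitors. Pou3f1 had its peak 94 bp upstream in siSCR (15.9% of the list), 130 bp upstream in siSeh1 (1.26%) and 251 bp upstream in iKO (9.02%). Pou3f3 had its peak at 42695683 in siSeh1 (1.76%) and 42695685 in iKO (1.76%) on chromosome 1, so the 2 positions almost coincide. The share, 4 of 16 in siSeh1 (25%), stands beside the 11.8% of all genes given above. In iKO it was 12.5% beside 5.18%, in siSCR 6.25% beside 1.63% and in Seh1 Ctrl 6.25% beside 1.02%. These shares rest on 2 genes in iKO and 1 in each of the other 2 lists.

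Of 12 SoxC targets and neuronal genes, Stmn1, a microtubule regulator, was the 1 with a promoter peak, in Seh1 Ctrl, iKO and siSeh1. Tubb3, Dcx, Map2, Neurod1, Neurod2, Prox1, Stmn2, Tead2, Rbfox3, Eomes and Tbr1 had none. Of 14 SoxD and SoxE targets and glial genes, siSeh1 had Olig1 and Olig2 and iKO had Olig1, both bHLH factors of the oligodendrocyte lineage. Olig1 had its peak 101 bp upstream in siSeh1 (2.23%) and 89 bp upstream in iKO (3.61%). Of 12 markers of microglia, endothelium and mesenchyme, siSeh1 had 1, Pdgfrb, and the other lists 0. In siSeh1 the 3 groups thus stood at 8.33%, 14.3% and 8.33%, near the 11.8% of all genes, and in iKO at 8.33%, 7.14% and 0%, near 5.18%. Chd4 Ctrl and Seh1-flag had no promoter peak at a gene of these groups.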

How the data were processed

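The 6 peak lists, 1 per library and group, were used. Per the file headers the authors annotated peaks with HOMER on mm10. Per the submitters' processing notes, which list human builds, Bowtie2 and HOMER were used, with no version stated. No source used here gives the peak caller, threshold, input or pooling. The peaks of 5 lists are 1 bp wide and carry the authors' peak score, whose scale is unstated. The deposited scores of Seh1 Ctrl are all 0, so its intervals (240 to 1296 bp) carry no rank. The distance to the TSS and the positions are as deposited by the authors, in base pairs.

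Members were the peaks whose Gene Name was a listed Sox gene. The members and gene lists were chosen with earlier results of these data known. Promoter peaks lay within 1 kb of the TSS by the deposited distance. Backgrounds used the 21900 protein-coding genes of RefSeq GRCm38.p6, matched by gene identifier (98.5 to 99.6% of peaks matched). Peaks with no TSS (8 to 55 a list) could not count. Of the 10 members 7 have promoter windows in the RefSeq table. Motifs were counted in the 250 bases before each start site. Named were all members, other Sox genes with a promoter peak, up to 6 genes with one from each further list, and the 5 genes most like the member with promoter peaks in most lists, of which there were none. Python 3.11.15, pandas 2.3.3, numpy 2.4.6, scipy 1.17.1 and matplotlib 3.10.9 were used, and the code was tested on simulated data. Alternatives changed the window, the annotation class, the scores, the list length, the overlap distance, the gene assignment and the peak ranked.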

Additional observations from a re-analysis of the deposited data

How the results depend on the processing

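Of 72 recomputed values 55 stayed within 1.5 times the reported one and 17 moved. Many of the 55 were counts of 0 that stayed 0. A narrower window, a shorter list or leaving out Sox11 cannot raise a count of 0 Sox genes at promoters. The 55 is therefore no measure of how stable the results are. A window of 500 bp, the promoter-TSS class and leaving out Sox11 (added after seeing the data) each left 0 Sox genes in Seh1-flag and 0 in siSCR, since Sox11 is the 1 gene there. A window of 2.5 kb gave 1 gene in iKO and 1 gained there. Lists cut to the shortest gave 2 genes in siSeh1 and 1 gained. With siSCR as the control, also added after seeing the data, 1 gene (Sox11) was lost in iKO. Centres within 120 bp gave 0 Seh1 and Chd4 pairs and within 1 kb 4. By RefSeq span with 10 kb on each side, the peaks numbered 7 in Seh1 Ctrl, 11 in iKO and 1 in siSCR. With each Sox gene represented by its highest ranked peak, the median rank over the genes in siSeh1 was 13.7%. With the peak nearest to the start site it was 35.5%. Both differ from the median over all 25 Sox peaks of that list, 44.9%, given above. At Sox5, Sox6, Sox11 and Sox12 the nearest peak there is not the highest ranked. Score settings could not be run for Seh1 Ctrl. The unknown depth limits every absence. No paired analysis was possible because each group has 1 library and the labels pair none.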
